A study of Mus musculus with 4 samples.

Results

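Transcripts of 9 costimulatory and inhibitory receptors of the immunoglobulin superfamily were examined in thymic invariant natural killer T (iNKT) cells, which see lipid antigens on CD1d through a nearly invariant receptor. The set holds Cd28, Icos, Ctla4, Pdcd1, Lag3, Havcr2, Tigit, Cd160 and Btla, taken by name, and all 9 were present among the 53715 genes of the table. Libraries came from Mettl3 KO mice, whose genotype is given as Mettl3fl/flCD4-cre (floxed Mettl3 and Cre recombinase under Cd4 control), and from WT mice, with 2 libraries each. All mice were C57BL/6 and 6 to 8 weeks old, and all cells were sorted as 7AAD-negative, CD1d-tetramer-positive and TCRβ-positive. Because Cd4-driven Cre acts from the CD4+CD8+ thymocyte onward, conventional T cells of these mice carry the deletion as well as iNKT cells. Whether the WT mice carried the floxed allele or Cre, and whether the libraries came from separate animals, is not given in the sources used here, so p-values reflect the spread among these 4 libraries alone, and that spread may be technical.

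A T cell receptor signal is tuned by coreceptors that bind ligands on the presenting cell. CD28 and ICOS recruit phosphoinositide 3-kinase through their cytoplasmic tails and raise the response, whereas CTLA-4 competes with CD28 for CD80 and CD86, and PD-1, BTLA and TIGIT carry tyrosine motifs that recruit the phosphatases SHP-1 and SHP-2 or related inhibitors. In thymic iNKT cells such receptors mark functional subsets as well as activation, and METTL3 is the enzyme that writes the m6A mark on mRNA.

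Of the 9 receptor genes, Cd160 alone fell in Mettl3 KO cells by the test across all genes, and none rose. Tigit was also lower and Lag3 higher in both Mettl3 KO libraries, but both missed the threshold. Havcr2 was counted in the Mettl3 KO libraries and had no count in WT. Cd28, Icos, Pdcd1 and Btla, which made up most of the receptor transcript, differed by less than 1.5-fold between the genotype means, and Ctla4 was close to the detection floor. Genotypes were compared by the quasi-likelihood F-test of edgeR, with Benjamini-Hochberg adjusted p-values over 14185 genes and calls made at an adjusted p under 0.05. It called 2.59% of all tested genes (1.09% higher and 1.51% lower), against 1 of 9 receptors (0 higher and 1 lower). Values of 6 of the 9 receptors did not overlap between the genotypes, 4 of them higher and 2 lower in Mettl3 KO, as was the case for 50.3% of all tested genes (25.4% higher and 24.9% lower), so the receptors did not stand out by that count. The median log2 fold change was 0.09 over the receptors and 0.02 over all tested genes. All 9 passed the filter on low counts, Havcr2 only through the Mettl3 KO libraries.

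**Figure D1:**
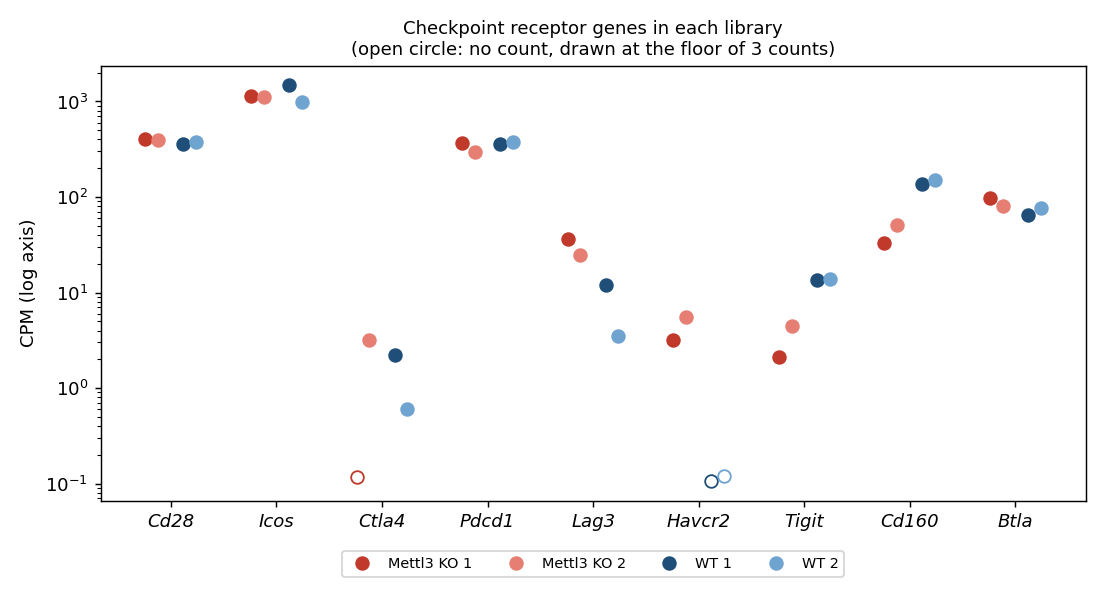
Level of each receptor gene in each library, in CPM (counts scaled to library size) on a log axis, with Mettl3 KO in red left of WT in blue; open circles stand at the floor of 3 counts where a library had none. Cd160 and Tigit lie lower, and Lag3 and Havcr2 higher, in both Mettl3 KO libraries than in both WT libraries.

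Total counts were 24374587 to 25402792 in the Mettl3 KO libraries and 25931610 to 28316016 in the WT libraries, and the 9 receptors took 0.192% to 0.240% of them. A floor of 3 counts corresponds to 0.107 to 0.120 CPM. Levels are in CPM, with library sizes adjusted by TMM factors, and n is 2 for every mean and SD. The targeted gene, Mettl3, was at 78.1 and 91.4 CPM in Mettl3 KO and at 92.2 and 123.6 CPM in WT, a log2 fold change of -0.35 (SE 0.19; adjusted p = 0.357 by edgeR). Counts are per gene and not per exon, so this value does not check the deletion. The reason for its size was not tested. Defining transcripts of T cells were present in all 4 libraries: the 9 iNKT and T cell identity genes (Cd3 chains, receptor constant regions, Zbtb16, Trav11 and Traj18) summed to 4851 and 5001 CPM in Mettl3 KO and to 5409 and 5633 CPM in WT. Of these 9 genes, 0 rose and Trac alone fell, a call lost without either Mettl3 KO library (adjusted p = 0.114 and 0.121 by edgeR).

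Levels of different genes were compared per length, as CPM per kilobase of merged exons. In Mettl3 KO the order of means was Icos (330.8 CPM per kb), Pdcd1 (171.8), Cd28 (65.7), Btla (26.3), Cd160 (16.0), Lag3 (14.5), Tigit (3.56), Havcr2 (1.60) and Ctla4 (0.680). In WT it was Icos (357.6 CPM per kb), Pdcd1 (191.7), Cd28 (59.7), Cd160 (54.8), Btla (20.8), Tigit (14.9), Lag3 (3.65), Ctla4 (0.609) and Havcr2 at 0. In Mettl3 KO the ranges of Cd160 and Lag3 overlapped, as did those of Havcr2 and Ctla4, whereas in WT no neighbours overlapped. Cd160 stood above Btla in both WT libraries and below Btla in both Mettl3 KO libraries. Lag3 stood above Tigit in both Mettl3 KO libraries and below it in both WT libraries.

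Icos, Pdcd1 and Cd28 together held 90.5% and 89.6% of the summed receptor level per length in Mettl3 KO and 88.0% and 84.8% in WT. Icos took 51.2% and 53.7% in Mettl3 KO and 55.9% and 44.7% in WT. Cd160 took 1.93% and 3.19% in Mettl3 KO and 6.79% and 8.99% in WT. Tigit took 0.348% and 0.800% in Mettl3 KO and 1.90% and 2.37% in WT, and Lag3 took 2.62% and 1.95% in Mettl3 KO and 0.734% and 0.259% in WT. The sum itself was 655.9 and 606.1 CPM per kb in Mettl3 KO and 766.9 and 640.6 CPM per kb in WT, with overlapping ranges.

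**Figure D2:**
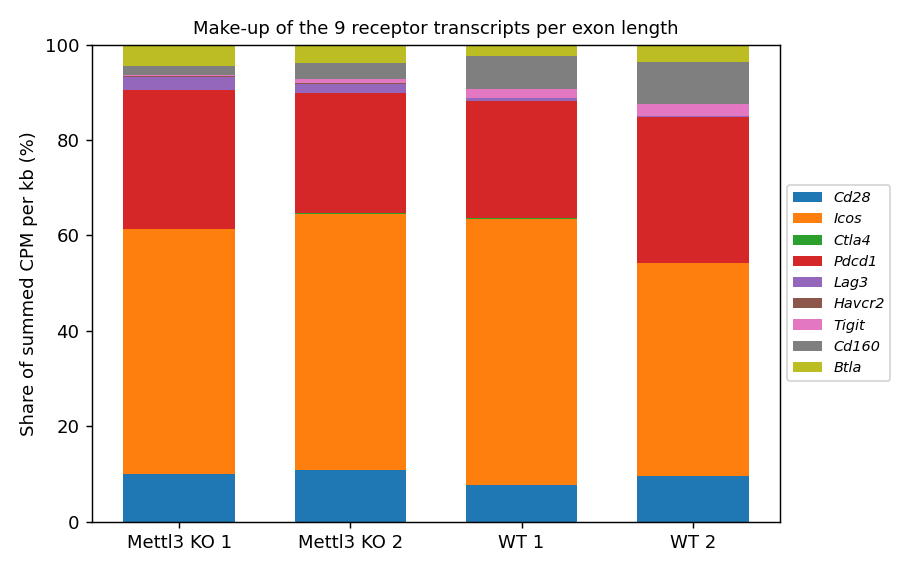
Share of each receptor in the summed CPM per kb of the 9 receptors, as stacked bars for the 2 Mettl3 KO libraries on the left and the 2 WT libraries on the right. Icos, Pdcd1 and Cd28 fill most of every bar, and the Cd160 segment is 1.93% and 3.19% in Mettl3 KO and 6.79% and 8.99% in WT.

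Among the costimulatory receptors, Cd28 (ENSMUSG00000026012.2, chr1:60716800-60773359, plus strand, GRCm38) encodes the main costimulator of T cells. Its level was 404.9 and 399.0 CPM in Mettl3 KO and 356.4 and 375.0 CPM in WT. Both Mettl3 KO libraries lay above both WT libraries, but the log2 fold change was 0.14 (95% interval -0.09 to 0.36, SE 0.10; adjusted p = 0.485 by edgeR). Icos (ENSMUSG00000026009.14, chr1:60977927-61000320, plus strand) encodes the inducible costimulator, which in mice marks NKT2 and NKT17 cells more strongly than NKT1 cells. It was at 1153 and 1117 CPM in Mettl3 KO and at 1471 and 982.4 CPM in WT. The WT libraries differed from each other by more than the genotype means did, and the log2 fold change was -0.11 (95% interval -0.51 to 0.28, SE 0.17; adjusted p = 0.775 by edgeR). Without WT replicate 1 it was 0.20, of the opposite sign. Icos stood at 2.85 and 2.80 times the CPM of Cd28 in Mettl3 KO and at 4.13 and 2.62 times in WT.

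Ctla4 (ENSMUSG00000026011.13, chr1:60887000-60915832, plus strand), which encodes the inhibitory competitor of CD28, lies between these genes, 113.6 kb after Cd28 and 62.1 kb before Icos on the same strand. In contrast to its neighbours it was barely counted, at 0 and 3.17 CPM (0 and 79 counts) in Mettl3 KO and at 2.24 and 0.597 CPM (63 and 15 counts) in WT. The groups overlapped, and the 95% interval of the log2 fold change ran from -2.68 to 2.87 around 0.09 (edgeR adjusted p = 0.978), and the libraries of 1 genotype differed from each other by more than the genotype means did. The sign turned without WT replicate 2 (-0.52), without Mettl3 KO replicate 2 (at least 12.2-fold lower against the floor) and in limma voom (-2.35). Ctla4 is abundant in regulatory T cells, whose defining gene Foxp3 had no count in any of the 4 libraries. The 8 regulatory T cell markers summed to 411.7 and 420.0 CPM in Mettl3 KO and to 317.7 and 332.5 CPM in WT, with 2 (Nrp1 and Il2ra) higher and 1 (Tnfrsf18) lower of 6 tested. Leaving out either WT library left Nrp1 higher and 0 lower, and leaving out either Mettl3 KO library left 0 in both directions. Of 5 genes for CTLA-4 trafficking, 1 had an unadjusted edgeR p under 0.05, against 2870 of all 14185 tested genes. The 5 had 0 called by edgeR, DESeq2 or limma voom and a median log2 fold change of -0.23. These are the endosomal protector Lrba (0.36), its partner Def6 (-0.02), the adaptor Trat1 (-0.25) and the clathrin adaptor subunits Ap1m1 (-0.23) and Ap2m1 (-0.32), with log2 fold changes in parentheses.

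Pdcd1 (ENSMUSG00000026285.7, chr1:94038305-94052553, minus strand) encodes PD-1, the receptor for PD-L1 and PD-L2. It was at 369.9 and 293.4 CPM in Mettl3 KO and at 362.7 and 377.4 CPM in WT. One Mettl3 KO library lay below both WT libraries and the other lay between them, and the log2 fold change was -0.16 (95% interval -0.46 to 0.15, SE 0.13; adjusted p = 0.564 by edgeR). Btla (ENSMUSG00000052013.14), the receptor for the herpesvirus entry mediator encoded by Tnfrsf14, was at 97.6 and 81.2 CPM in Mettl3 KO and at 64.1 and 76.9 CPM in WT. Both Mettl3 KO libraries were higher, by a log2 fold change of 0.35 (95% interval -0.07 to 0.76, SE 0.18; adjusted p = 0.328 by edgeR). The 95% intervals of Cd28, Icos, Pdcd1 and Btla each held 0.

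Cd160 (ENSMUSG00000038304.14, chr3:96798763-96829351, minus strand) encodes a glycolipid-anchored receptor of natural killer cells and cytotoxic T cells that binds the same ligand as BTLA. It was at 33.4 and 51.2 CPM in Mettl3 KO and at 137.5 and 152.2 CPM in WT. Both Mettl3 KO libraries lay well below both WT libraries. Means were 42.3 ± 12.6 CPM in Mettl3 KO and 144.9 ± 10.4 CPM in WT (SD), and the gene fell by 1.78 on the log2 scale (SE 0.21, 95% interval -2.27 to -1.29), a 3.43-fold lower level (edgeR adjusted p = 0.00888). Cd160 did not pass without WT replicate 2 (log2 -1.71, adjusted p = 0.0718) or without Mettl3 KO replicate 1 (log2 -1.50, adjusted p = 0.0655), while it passed without WT replicate 1 (0.0466) and without Mettl3 KO replicate 2 (0.0328). The CPM of Cd160 was 0.342 and 0.630 times that of Btla in Mettl3 KO and 2.15 and 1.98 times in WT. Exons of Pdzk1 on the other strand share 2.57% of the merged exon length of Cd160, and reads there cannot be assigned by strand.

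Markers of NKT1 cells, the interferon-γ-producing subset, were lower in Mettl3 KO as Cd160 was, and so were most markers of NKT17 cells. Of the 14 markers listed for NKT1 cells, 13 fell and 0 rose, against 1.51% lower and 1.09% higher of all tested genes. The median log2 fold change of the list was -2.10. The marker lists were chosen with earlier results of these data known. The 14 NKT1 markers summed to 2746 and 2688 CPM in Mettl3 KO and to 5384 and 7299 CPM in WT, and none was at 0 in either genotype. Leaving out WT replicate 1 gave 12 that fell, WT replicate 2 gave 7, and either Mettl3 KO replicate gave 5. Of 11 NKT17 markers 7 fell and 0 rose, with a median log2 fold change of -2.59. Ccr6, among the 7, had 1 and 0 counts in Mettl3 KO and 375 and 160 in WT. It met the filter on low counts only through WT, so its p is not used here. The 11 markers summed to 122.5 and 139.8 CPM in Mettl3 KO and to 538.0 and 458.9 CPM in WT, and Il17a alone was at 0 in Mettl3 KO. Leaving out WT replicate 1 or 2 gave 4, Mettl3 KO replicate 1 gave 3 and Mettl3 KO replicate 2 gave 2. Of 9 NKT2 markers 3 rose and 0 fell, with sums of 2525 and 2421 CPM in Mettl3 KO and 2087 and 1630 CPM in WT, and the count was 3 or 2 with a WT library left out and 1 with a Mettl3 KO library left out. Fewer cells of a subset and less RNA per cell cannot be told apart in these bulk samples, and the part of the subset markers in the Cd160 value was not tested.

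**Figure D3:**
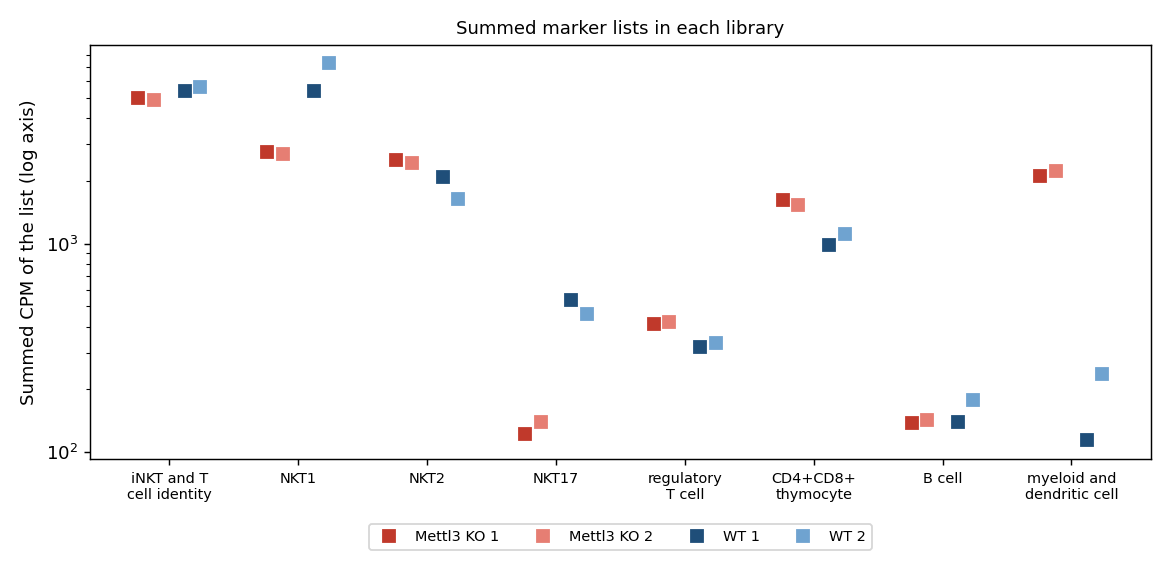
Summed CPM of each marker list in each library on a log axis, Mettl3 KO in red left of WT in blue. NKT1 and NKT17 sums lie lower and myeloid and dendritic cell sums higher in both Mettl3 KO libraries than in both WT libraries.

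Over the 4 libraries, the genes whose centred log2 CPM lay nearest to those of Cd160, among 8318 other protein-coding genes averaging 10 CPM or more, were Il17re and Rsad2. Il17re, a receptor chain for interleukin-17C that also stands on the NKT17 list, lay at a Euclidean distance of 0.0339. Its level was 9.75 and 15.0 CPM in Mettl3 KO and 41.1 and 45.5 CPM in WT. Rsad2, an interferon-induced antiviral gene, lay at 0.193, with 9.09 and 14.7 CPM in Mettl3 KO and 45.0 and 51.9 CPM in WT. With so few libraries many genes share such a pattern.

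Tigit (ENSMUSG00000071552.4) encodes an inhibitory receptor for the poliovirus receptor, PVR, and for nectin-2. It was at 2.10 and 4.45 CPM (54 and 111 counts) in Mettl3 KO and at 13.4 and 13.97 CPM (376 and 351 counts) in WT. The groups did not overlap, and the difference between the Mettl3 KO libraries was larger than that between the WT libraries. The log2 fold change was -2.07 (SE 0.45, 95% interval -3.13 to -1.01), and edgeR's adjusted p of 0.0629 missed the threshold. Leaving out Mettl3 KO replicate 2 gave -2.70 (6.52-fold lower against 4.19-fold with all libraries), Mettl3 KO replicate 1 gave -1.62, WT replicate 1 gave -2.11 and WT replicate 2 gave -2.04. Tigit passed with DESeq2 (adjusted p = 0.00735), which called 9.4% of all genes and 4 of the 9 receptors. That count takes in Havcr2, which passed the filter only through the Mettl3 KO libraries. Where genes were kept at 5 CPM or more in 2 libraries, edgeR called 7.39% of genes and 3 of 7 receptors, Tigit among them. Tigit reached 5 CPM only in the WT libraries, where it was higher, so its p under that filter is not used here. Relative to Cd226, which encodes the activating receptor for the same ligands, the CPM of Tigit was 0.0239 and 0.0357 in Mettl3 KO and 0.0957 and 0.0792 in WT.

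Lag3 (ENSMUSG00000030124.2, chr6:124904361-124911705, minus strand) encodes a CD4-related receptor that binds MHC class II. It was at 36.3 and 24.9 CPM in Mettl3 KO and at 11.9 and 3.50 CPM in WT. Both Mettl3 KO libraries lay above both WT libraries, and the WT libraries differed from each other by a larger ratio than the nearest libraries of the 2 genotypes did. The log2 fold change was 1.96 (95% interval 0.88 to 3.04, SE 0.46; adjusted p = 0.0745 by edgeR), and leaving out WT replicate 1 gave 3.12, WT replicate 2 gave 1.36, Mettl3 KO replicate 1 gave 1.66 and Mettl3 KO replicate 2 gave 2.20. Lag3 passed with DESeq2 (adjusted p = 0.00808). It also passed at 5 CPM or more in 2 libraries, a filter that its WT libraries alone would not have met. Its p under that filter is therefore not used here.

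Havcr2 (ENSMUSG00000020399.14, chr11:46454935-46481255, plus strand) encodes TIM-3, a receptor for galectin-9 and phosphatidylserine that T cells share with macrophages and dendritic cells. It had 82 and 137 counts, or 3.19 and 5.50 CPM, in Mettl3 KO and no count in either WT library, so that the Mettl3 KO mean of 4.34 CPM was at least 38.4-fold higher than the floor of 3 counts per WT library. Because the gene passed the filter through the libraries where it was counted, its p is not used here. Of the 13 myeloid and dendritic cell markers, 7 of 12 tested rose and 0 fell, with a median log2 fold change of 4.05. Among the 7, Csf1r had 761 and 389 counts in Mettl3 KO and 24 and 0 in WT. Cd209a, also among them, had 794 and 921 counts in Mettl3 KO and 0 and 42 in WT. Both met the filter only with the Mettl3 KO libraries, so their p is not used here. Other genes behind the median met it likewise. The 13 markers summed to 2102 and 2236 CPM in Mettl3 KO and to 114.1 and 236.0 CPM in WT. Flt3, a receptor gene of dendritic cell precursors, and Itgam were at 0 in both WT libraries. Flt3 had 166 and 91 counts in Mettl3 KO, and Itgam, which was untested, had 7 and 4, near the floor of 3. C1qa had 150 and 206 counts in Mettl3 KO and 198 and 213 in WT. Itgax had 115 and 1 in Mettl3 KO and 0 and 26 in WT. Both overlapped between the genotypes. Of the 12 tested markers 10 were higher in Mettl3 KO without overlap, as were 25.4% of all tested genes. The 7 that rose were 6 without WT replicate 1 or 2 and 4 without Mettl3 KO replicate 1 or 2. The part of these transcripts in the Havcr2 and Lag3 values was not tested.

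**Figure D4:**
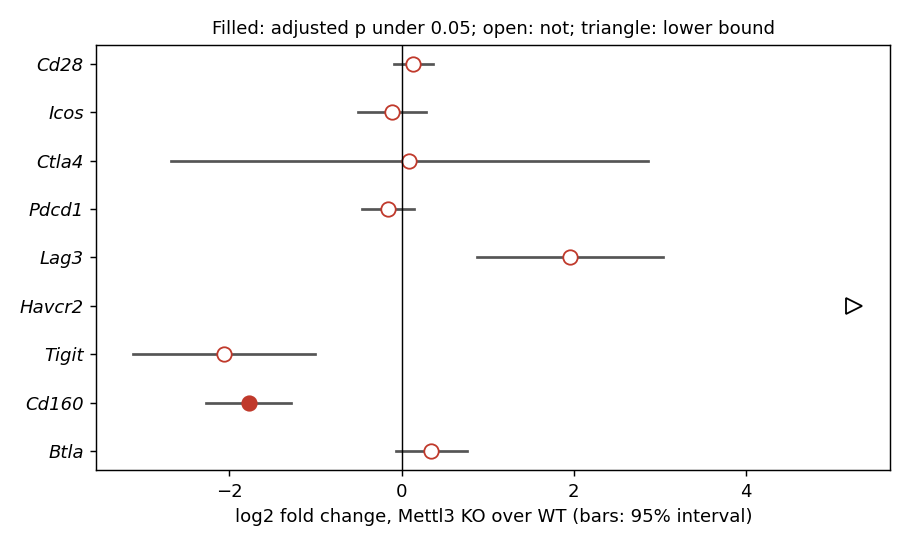
Log2 fold change of each receptor gene, Mettl3 KO over WT, with its 95% interval; the filled circle passed edgeR's test and the triangle for Havcr2 is the lower bound against 3 counts per WT library. Cd160 is the only filled point, at -1.78, and the intervals of Cd28, Icos, Ctla4, Pdcd1 and Btla cross 0.

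Markers of other cells that a thymic sort could hold were also read. Of 8 B cell markers 0 of 7 tested were called by edgeR, DESeq2 or limma voom. An unadjusted edgeR p under 0.05 was found for 2 of the 7, against 2870 of all 14185 tested genes. The 8 markers summed to 138.4 and 143.0 CPM in Mettl3 KO and 139.3 and 176.9 CPM in WT, and Pax5 had no count in any library. Of 9 CD4+CD8+ thymocyte markers 1, Ccr9, rose and 0 fell, with sums of 1624 and 1534 CPM in Mettl3 KO and 979.7 and 1117 CPM in WT. With any 1 library left out 0 rose, whereas 3 did with total-count scaling, 4 at 5 CPM or more in 2 libraries and 6 with DESeq2.

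METTL3 methylates adenosine chiefly in short contexts of which GGACT, written here in DNA letters, is the most used form. To show where the receptor mRNAs hold it, the motif was searched on the sense strand of the longest protein-coding GENCODE M21 transcript of each gene. It was found 5 times in Cd28, Ctla4, Lag3, Havcr2 and Btla, 4 times in Pdcd1, once each in Icos and Tigit, and not in the 2590 bases of the Cd160 transcript. The median density was 1.54 per kb over the 9 receptors and 1.05 per kb over 11701 tested protein-coding genes, of which 92.4% held the motif at least once. Among sites whose 21 bases lie within a single exon, the one nearest to the end of the coding sequence is given for 4 receptors. The 21 bases are written 5′ to 3′, with the motif in capitals.
Icos, chr1:60997740-60997760, plus strand: aaacgcatGGACTagttcccc
Pdcd1, chr1:94039476-94039496, minus strand: gaggagctGGACTtccaggga
Havcr2, chr11:46479447-46479467, plus strand: ccgcctctGGACTgccacttt
Tigit, chr16:43659474-43659494, minus strand: ctgtgctgGGACTcatttgct
These were chosen to show an abundant costimulator, an abundant inhibitor, and the receptors with the largest positive and negative differences. The Havcr2 and Icos sites lie in the 3′ untranslated region, with the motif starting 12 and 37 bases after the last coding base ahead of the stop codon. The Pdcd1 and Tigit sites lie in the coding sequence, 180 and 278 bases before that base. A match is a description of the letters; methylation was not measured in these samples.

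The promoter of Cd160, the receptor that fell, is given as it stands in RefSeq (GRCm38.p6), 250 bases before to 50 after the start at the 5′ end of the gene. Motifs searched on both strands in the 6 receptors with a promoter entry (Ctla4, Pdcd1, Havcr2, Tigit, Cd160 and Btla) were the cores AGGTGT for T-box factors, TGTGGT for RUNX factors, GGAAA for NFAT and AAAGGTCA for NR4A receptors. Capitals mark the RUNX core, here on the opposite strand as ACCACA.
Cd160, chr3:96829302-96829601, minus strand: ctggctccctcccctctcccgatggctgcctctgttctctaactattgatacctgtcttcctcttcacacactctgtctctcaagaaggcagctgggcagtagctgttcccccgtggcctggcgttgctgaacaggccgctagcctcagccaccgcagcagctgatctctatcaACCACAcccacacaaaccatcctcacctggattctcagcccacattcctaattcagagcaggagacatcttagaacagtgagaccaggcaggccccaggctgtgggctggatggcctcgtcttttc
The RUNX core was present once in the promoters of Havcr2, Tigit, Btla and both RefSeq starts of Cd160, and in 16.8% of all 32851 promoters. The T-box core was present in that of Ctla4, and in 13.7% of all. The NFAT core, in 61.3% of all, was present in those of Ctla4, Pdcd1, Tigit and a second, inner start of Cd160, and the NR4A core, in 1.51% of all, in none of the 6.

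Of 11 ligands and binding partners of the receptors, 9 were tested. With edgeR 0 were called and 4 had an unadjusted p under 0.05, against 2870 of all 14185 tested genes. Limma voom called 0, and DESeq2 called Pvr and Lgals9 lower (adjusted p = 0.000160 and 0.00211), as did edgeR at 5 CPM or more in 2 libraries (0.0203 and 0.0421). The list's median log2 value was 0.07; Cd80 was below the filter and Fgl1 was not counted. Pvr, the ligand of TIGIT and CD226, was at 111.0 and 114.4 CPM in Mettl3 KO and at 175.2 and 251.3 CPM in WT (log2 -0.92, SE 0.19; adjusted p = 0.0523 by edgeR, and 0.0272 without WT replicate 1). Lgals9, which encodes the TIM-3 ligand galectin-9, was at 274.5 and 263.5 CPM in Mettl3 KO and at 354.5 and 373.4 CPM in WT (log2 -0.44, SE 0.10; adjusted p = 0.0734 by edgeR). Nectin2 had 58 and 14 counts in Mettl3 KO and 1 count in each WT library (edgeR adjusted p = 0.185). Cd86, the ligand of CD28 and CTLA-4 on presenting cells, was at 21.5 and 8.35 CPM in Mettl3 KO and at 5.76 and 6.29 CPM in WT (edgeR adjusted p = 0.221), in the same direction as the myeloid and dendritic cell markers.

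Among 12 other coreceptors and related surface molecules, 2 rose and 2 fell, and the median log2 fold change was -0.17. Not all of the 12 are receptors of the immunoglobulin family: Cd5 and Cd6 are not of that family, and Cd200 encodes a ligand. Pvrig, which encodes an inhibitory receptor for nectin-2, was at 3.54 and 2.89 CPM in Mettl3 KO and at 26.9 and 34.1 CPM in WT, 9.42-fold lower (SE 0.37 on the log2 scale; adjusted p = 0.00839 by edgeR). Vsir, which encodes the inhibitory receptor VISTA, was at 82.8 and 72.3 CPM in Mettl3 KO and at 173.7 and 188.6 CPM in WT, 2.33-fold lower (SE 0.14; adjusted p = 0.00844 by edgeR). Cd5, whose product dampens T cell receptor signalling and tracks its strength in thymocytes, was at 880.0 and 830.1 CPM in Mettl3 KO and at 489.0 and 582.6 CPM in WT, 1.60-fold higher (SE 0.11; adjusted p = 0.0275 by edgeR). Cd200, the ligand of the inhibitory receptor CD200R, was at 44.0 and 41.4 CPM in Mettl3 KO and at 19.4 and 20.3 CPM in WT, 2.15-fold higher (SE 0.22; adjusted p = 0.0482 by edgeR).

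Of the receptors for PVR and nectin-2, a grouping made after the values were seen, Pvrig was the one that passed. Cd226 had a log2 fold change of -0.57 (edgeR adjusted p = 0.171) and Cd96, another PVR receptor, of -0.02 (0.970). The calls of Pvrig, Vsir, Cd5 and Cd200 were not kept in every fit with 1 library left out, and such fits also called fewer of all tested genes. Without WT replicate 1, WT replicate 2, Mettl3 KO replicate 1 and Mettl3 KO replicate 2 in that order, edgeR's adjusted p was 0.0299, 0.0544, 0.0681 and 0.0749 for Pvrig, and 0.0380, 0.0590, 0.0673 and 0.0960 for Vsir. In the same order it was 0.0618, 0.0320, 0.172 and 0.146 for Cd5, and 0.151, 0.163, 0.229 and 0.206 for Cd200.

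**Figure D5:**
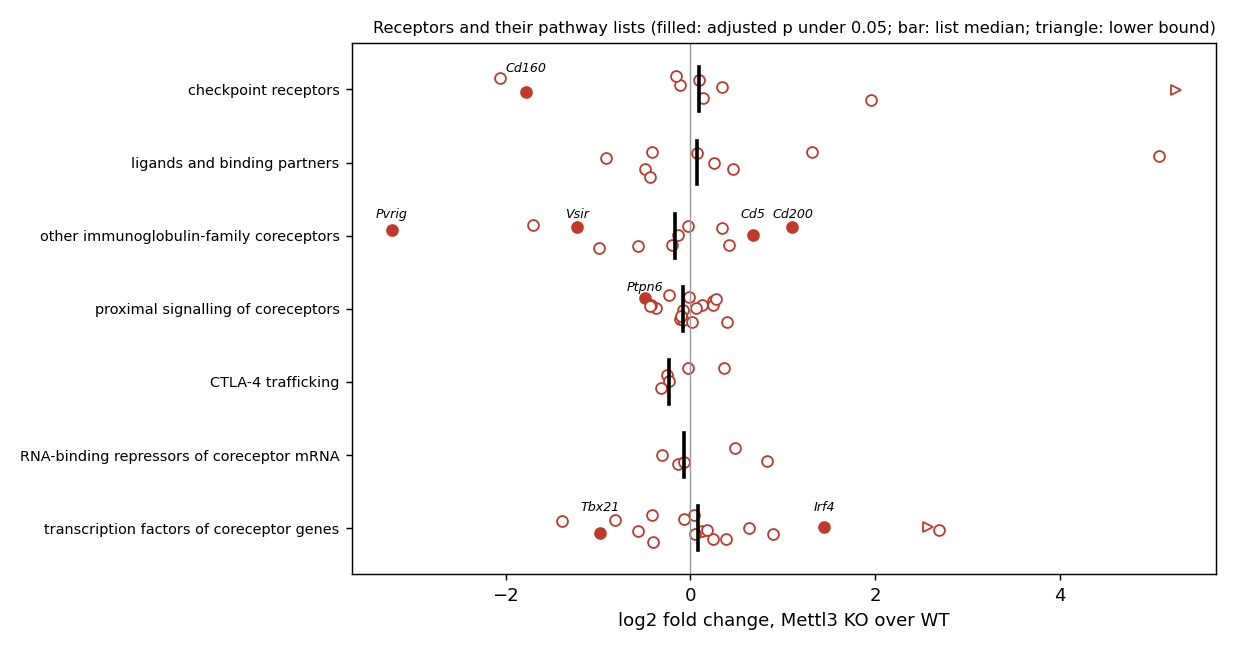
Log2 fold change, Mettl3 KO over WT, of every tested gene of the receptor set and of 6 lists around it; filled points passed edgeR's test and are named, black bars are list medians, and triangles are lower bounds where WT had no count. Called genes are Cd160, Pvrig, Vsir, Cd5, Cd200, Ptpn6, Tbx21 and Irf4. The list labelled other immunoglobulin-family coreceptors also holds Cd5 and Cd6, which are not of that family, and Cd200, which encodes a ligand.

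Of 17 genes for signalling next to these receptors, 1 fell and 0 rose, with a median log2 fold change of -0.08. Ptpn6, which encodes the phosphatase SHP-1 recruited by inhibitory tails, was at 749.2 and 775.9 CPM in Mettl3 KO and at 998.5 and 1143 CPM in WT, 1.40-fold lower (SE 0.09; adjusted p = 0.0463 by edgeR). Leaving out WT replicate 1 kept the call (0.0364), and leaving out WT replicate 2 (0.119), Mettl3 KO replicate 1 (0.243) or Mettl3 KO replicate 2 (0.219) ended it. Vav1, an exchange factor downstream of CD28, had a log2 fold change of -0.42 (edgeR adjusted p = 0.0816) and the kinase gene Csk one of 0.25 (0.268). RNA-binding repressors that destabilise Icos and related mRNAs had 0 of 5 called by edgeR or limma voom and a median log2 fold change of -0.07. An unadjusted edgeR p under 0.05 was found for 1 of the 5, against 2870 of all 14185 tested genes. DESeq2 called Zc3h12d higher (adjusted p = 0.0486). Roquin genes Rc3h1 and Rc3h2 had log2 fold changes of -0.14 and -0.07, the regnase genes Zc3h12a and Zc3h12d of 0.48 and 0.83, and N4bp1 of -0.30.

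Among 18 transcription factors known to act on coreceptor genes, 1 rose and 1 fell, with a median log2 fold change of 0.09. Irf4, induced by T cell receptor signals, was at 78.5 and 77.8 CPM in Mettl3 KO and at 29.0 and 28.2 CPM in WT, 2.73-fold higher (SE 0.18 on the log2 scale; adjusted p = 0.0101 by edgeR). Leaving out any 1 library ended the call, with adjusted p from 0.0571 to 0.0911. Tbx21, which encodes T-bet and also stands on the NKT1 list, was the one that fell, with a log2 fold change of -0.98 (edgeR adjusted p = 0.0202). Leaving out WT replicate 1 kept the call (0.0132), and leaving out WT replicate 2 (0.0532), Mettl3 KO replicate 1 (0.114) or Mettl3 KO replicate 2 (0.147) ended it. Runx3, a factor of cytotoxic lineage genes, was at 174.1 and 129.8 CPM in Mettl3 KO and at 238.5 and 295.8 CPM in WT (log2 -0.81; adjusted p = 0.0607 by edgeR). Prdm1, which encodes Blimp-1, had a log2 fold change of -1.39 (edgeR adjusted p = 0.0793).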

How the data were processed

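RNA from sorted thymic iNKT cells was sequenced in 2 Mettl3 KO and 2 WT libraries, made by Smart-seq2 per the labels' protocols, a method that does not mark strand. The authors deposited raw read counts per gene for 53715 Ensembl IDs, replicates not pooled. The submitters' processing notes name FastQC 0.11.5, STAR 2.6.0a, HTSeq 0.6.1, DESeq2 1.18.1 and mm10; no source used here gives their roles, the annotation release or the strand setting.

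IDs were matched without version to GENCODE M21 (GRCm38): 53620 had a symbol. The version differed for Tigit and Btla, whose gene coordinates are not printed and whose lengths are those of M21. In R 4.3.3, genes were kept by filterByExpr, scaled by TMM and tested two-sided with edgeR 4.0.16 (glmQLFit with robust=TRUE, glmQLFTest), without covariates (2 residual degrees of freedom). SE is the log2 fold change over the square root of F. Where 1 genotype had no count, the fold is a bound against 3 counts per library; intervals and floors cover these libraries and counting error only. Alternatives used limma 3.58.1 voom, DESeq2 1.42.0, other scalings and filters, and each library left out. Scripts were tested on simulated counts.

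Members and lists were chosen with earlier results of these data known. Beside the 9 receptors and Mettl3, up to 4 genes of each list with the smallest p, and every gene of lists of 5, were named, with up to 3 of each marker list and the 2 nearest patterns of a called receptor. One gene that this rule names is not reported here. Cd226, Cd96, Cd80, Fgl1, Pdzk1, Cd6, Ccr6, Csf1r, Cd209a, C1qa and Itgax were named after their values were seen. Replicates differed beyond counting noise (chi-square over its degrees of freedom 27.0 for Mettl3 KO, 42.5 for WT) and were kept separate. Across genes, log2(CPM + 1) correlated at Pearson's r of 0.974 between the Mettl3 KO libraries, 0.975 between the WT libraries and 0.955 to 0.958 between genotypes.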

Additional observations from a re-analysis of the deposited data

How the results depend on the processing

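The test called 368 genes, and 727 at 5 CPM or more in 2 libraries, 1333 with DESeq2, 33 with the replicate number as a block, and 41 to 172 with a library left out. Of the receptors it called 1, against 3 at 5 CPM, 4 with DESeq2, 0 with the replicate block and 0 to 1 with a library left out. Cd160 kept its direction under all 11 alternatives, with log2 fold changes of -2.12 to -1.50 with a library left out, and missed the threshold with the replicate block (-1.80, adjusted p = 0.0593). Lag3 passed at 5 CPM (1.96) and with DESeq2 (1.998), as did Tigit (-2.06 in both). Each met the 5 CPM filter only with the libraries of the genotype where it was higher, so the p-values of Lag3 and Tigit at 5 CPM are not used. The DESeq2 count takes in Havcr2, which passed the filter only through the Mettl3 KO libraries, so its p is not used. The bound of Havcr2 against the floor is 5.26 on the log2 scale and was not itself tested. Ctla4 turned negative with limma voom (-2.35); with a library left out its values ran from -3.61, a bound, to 1.37, and those of Icos from -0.38 to 0.20. The cause was not tested. The numbers are shared only in name: same-numbered libraries had deviations from their genotype means that correlated at -0.03, and the block leaves 1 residual degree of freedom. At 5 CPM Ctla4 and Havcr2 were not tested. Cd200 missed the threshold with limma voom (adjusted p = 0.0517), and Cd200 and Ptpn6 did without a filter (0.0651 and 0.0628), as did Ptpn6 with DESeq2's scaling (0.0503). Ctla4 had 0 to 79 counts a library, a spread between libraries of 1 genotype that limits its value.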
